A study of Oryza coarctata with 5 samples.

Results

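The 100 transcripts described here were those of *Oryza coarctata* (*Porteresia*), a wild relative of rice from saline, tidally flooded shores, whose level stood above the water control by the widest margin in all 4 stress treatments at once. Levels are RPKM, which divides the reads of a transcript by its length in kilobases and by the size of the library. Members were chosen by these same values: a transcript had to be above 0 in all 5 libraries and at RPKM of at least 2 in each of the 4 treatments, which 31330 of 152367 transcripts were. Its score was the smallest of 4 log2 ratios of treatment to control, each taken after adding 0.5 to both RPKM values, and the 100 highest scores were kept. The position of the members above the control is therefore a description of the choice and not a result.

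The series holds 5 libraries of polyadenylated RNA from mature plants collected in nature, 1 for each condition. The conditions were a control kept in water, exposure to NaCl at 450 mM, exposure to NaCl at 700 mM, plants submerged in water (called plain water here) and plants submerged in NaCl at 450 mM (called salt water or the combined treatment here). The plots write both out in full, as submergence. No genotype, plant age, tissue beyond the mature plant, exposure time or number of plants per library is given in the sources used here. With 1 library per treatment there is no replicate check, no test was run, and intervals below are exact 95% intervals for read counts, which cover counting error only. Read totals, transcript lengths and reads were solved from the RPKM steps, and the totals ran from 56638113 in the control to 78997383 under plain water. In bulk RNA, more cells of a type and more RNA per cell cannot be told apart.

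Salt outside the root withdraws water from a plant and loads its tissues with sodium and chloride, while submergence cuts off the supply of oxygen and carbon dioxide and pushes cells toward fermentation. Both also draw on shared responses, such as protective proteins, antioxidant enzymes and abscisic acid or ethylene signalling. *Oryza coarctata* is known for salt hairs on its leaves that shed salt, and it meets salt and flooding together in its habitat. The transcripts carry assembly numbers without gene names, so none of them could be assigned to such a process, several can belong to 1 gene, and no sequence is shown because the files hold none.

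By size, few members stood far above the control in every treatment. Of the 31330 transcripts that met the RPKM minimum, 7 (0.0223%) were at least 2-fold above control in all 4 treatments on the scale of RPKM + 0.5, and these were the first 7 members. Another 68 members had a score from 0.5 to under 1, and the last 25 had one under 0.5. The score ran from 1.57, which is 2.97-fold, through a median of 0.58, which is 1.49-fold, to 0.46, which is 1.37-fold. Most of the list was thus chosen on differences of less than 2-fold.

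The 3 members just inside the limit were Pc_TC049667, Pc_TC021027 and Pc_TC088354, and the 3 transcripts just outside it were Pc_TC112679, Pc_TC040920 and Pc_TC039337. All 6 had a score of 0.46. Pc_TC088354, the last member, stood at 6.07 RPKM in the control, 9.10 in 450 mM NaCl, 8.88 in 700 mM NaCl, 8.53 under plain water and 11.1 under salt water. Pc_TC112679, the first transcript left out, stood at 1.59 RPKM in the control and at 3.68, 2.72, 2.38 and 3.38 in the same treatments.

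Pc_TC085941 (1155 nt) had the highest score. Its level was 0.504 RPKM in the control from 33 reads, 3.37 in 450 mM NaCl from 233, 6.46 in 700 mM NaCl from 436, 3.87 under plain water from 353 and 2.49 under salt water from 215. All 4 treatments stood well apart from the control, with 700 mM NaCl highest and the combined treatment lowest. The ratios of RPKM to control were 6.69 (interval 4.63 to 9.94), 12.8 (8.98 to 18.8), 7.67 (5.36 to 11.3) and 4.93 (3.41 to 7.34) in that order.

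Pc_TC026229 (1566 nt) had the second highest score. It stood at 1.21 RPKM in the control, 3.92 in 450 mM NaCl, 6.34 in 700 mM NaCl, 9.54 under plain water and 7.44 under salt water, from 107, 367, 580, 1180 and 872 reads. Here the submerged libraries were the highest, and plain water was 7.91-fold above control (6.48 to 9.73). The smallest ratio, in 450 mM NaCl, was 3.25-fold (2.61 to 4.07).

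The next 3 members rested on few control reads. Pc_TC051809 (226 nt) had 16 reads in the control, 78 in 450 mM NaCl, 107 in 700 mM NaCl, 68 under plain water and 74 under salt water, or 1.25, 5.77, 8.10, 3.81 and 4.37 RPKM. Pc_TC040884 (385 nt) had 18 control reads and stood at 0.825, 5.08, 2.93, 3.62 and 2.57 RPKM in the same order. Pc_TC050048 (213 nt) had 15 control reads and stood at 1.24, 4.71, 4.02, 3.15 and 5.46 RPKM. The first was highest in 700 mM NaCl, the second in 450 mM NaCl and the third in the combined treatment. Their smallest ratios to control had intervals of 1.75 to 5.63, 1.84 to 5.53 and 1.41 to 4.84.

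Pc_TC016307 (1328 nt) was the most even of the 7 members past 2-fold. It stood at 3.11 RPKM in the control and at 7.73, 7.05, 9.03 and 6.89 RPKM in 450 mM NaCl, 700 mM NaCl, plain water and salt water, from 234, 614, 547, 947 and 685 reads. The ratios lay between 2.21-fold (1.91 to 2.58) in the combined treatment and 2.90-fold (2.51 to 3.36) under plain water. Pc_TC034149 (776 nt), the last of the 7, stood at 3.66 RPKM in the control and at 8.51, 7.83, 16.6 and 13.3 in the same treatments. On the scale of RPKM + 0.5 it lay at the 2-fold limit in 700 mM NaCl.

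The following 3 members stayed just under 2-fold in at least 1 treatment on the scale of RPKM + 0.5, at 1.99, 1.94 and 1.94-fold, although their RPKM ratios without the 0.5 were all above 2. Pc_TC078463 (311 nt) stood at 3.18 RPKM in the control, 6.93 in 450 mM NaCl, 7.81 in 700 mM NaCl, 6.84 under plain water and 10.4 under salt water. Pc_TC001150 (1599 nt) stood at 1.12, 2.63, 3.09, 5.11 and 3.97 RPKM in the same order. Pc_TC036242 (682 nt) stood at 1.14, 2.67, 3.76, 15.4 and 11.8 RPKM. The third was 13.6-fold above control under plain water (10.01 to 18.8) but 2.35-fold in 450 mM NaCl (1.64 to 3.41), so that a score close to that of Pc_TC078463 went with a far less even set of ratios.

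**Figure D1:**
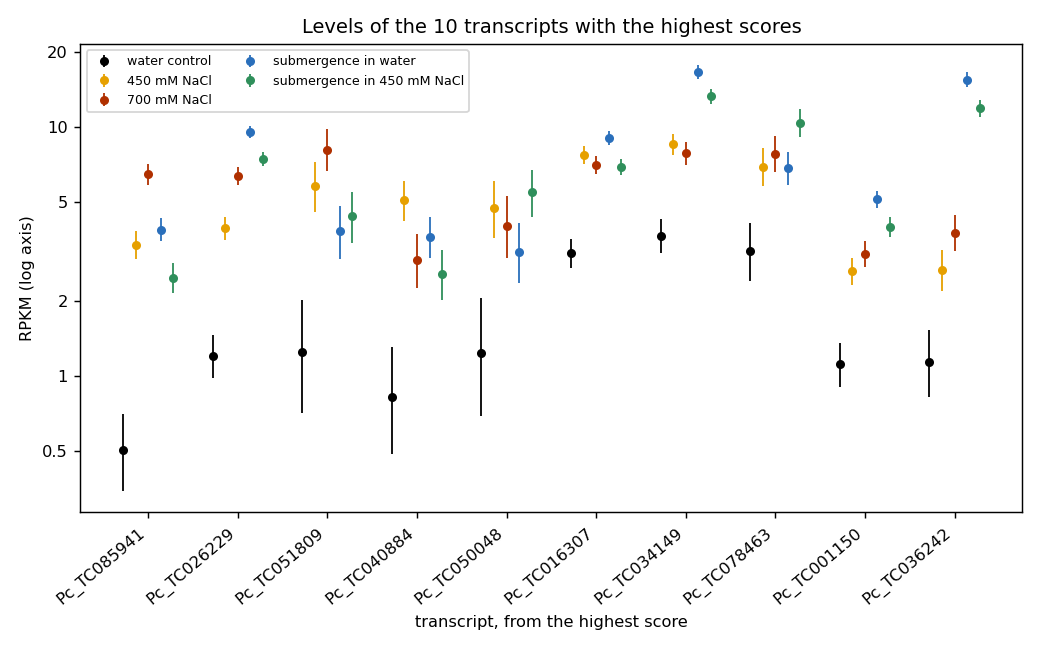
RPKM (log axis) of the 10 transcripts with the highest scores in the 5 libraries, with exact Poisson 95% intervals of the read counts as bars, 1 library per point. The control is the lowest point of each transcript, at 0.504 RPKM for Pc_TC085941 and up to 3.66 for Pc_TC034149, while the highest treatment changes from transcript to transcript.

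Over all 100 members, control levels were low. They ran from 0.504 to 20.4 RPKM with a median of 2.02, against a median of 8.61 over the 31330 transcripts that met the minimum. In 50 members the control stood below RPKM 2 (4 of them below 1), in 33 from 2 to under 5, in 12 from 5 to under 10 and in 5 at 10 or more. The medians of the members in the treatments were 4.08 RPKM in 450 mM NaCl, 4.57 in 700 mM NaCl, 4.75 under plain water and 5.25 under salt water. The rule favours low control levels, since the ratio is to the control. Together the members took 0.0340% of the reads of the control and 0.0715%, 0.0711%, 0.0909% and 0.0877% of those of the treatments in the same order.

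The 5 members with the highest control levels rested on 412 to 1886 control reads. Pc_TC027608 (1151 nt) stood at 20.4 RPKM in the control, 31.6 in 450 mM NaCl, 30.1 in 700 mM NaCl, 37.5 under plain water and 35.9 under salt water. Its ratios were nearly level, from 1.48-fold (1.38 to 1.58) in 700 mM NaCl to 1.84-fold (1.73 to 1.96) under plain water. Pc_TC024854 (961 nt) had the same order of treatments, at 17.8, 30.2, 28.1, 37.9 and 35.3 RPKM. Pc_TC022576 (629 nt) was highest in 700 mM NaCl, at 11.6, 17.4, 20.3, 16.4 and 17.2 RPKM. All 3 therefore lay below 2-fold in most treatments although their intervals stood clear of 1.

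Pc_TC025884 (2658 nt) and Pc_TC021147 (1011 nt) showed larger differences at similar control levels. The first stood at 12.5 RPKM in the control, 33.1 in 450 mM NaCl, 21.1 in 700 mM NaCl, 38.4 under plain water and 41.7 under salt water, with less at the higher salt dose than at the lower. The second stood at 15.5, 25.4, 21.7, 91.7 and 61.7 RPKM and reached the highest level of any member. It was 5.93-fold above control under plain water (5.53 to 6.37) and 1.40-fold in 700 mM NaCl (1.29 to 1.53).

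Counting precision differed with length. The members had a median recovered length of 478.5 nt, against 904 nt over the transcripts that met the minimum. Reads in the control ran from 13 to 1886 per member with a median of 53, and 57 members had fewer than 100. In 84 members the interval of the read ratio lay above 1 in all 4 treatments, in 14 it did so in 3 treatments and in 2 members in 2 treatments. Of the 31330 transcripts, 320 (1.02%) had all 4 intervals above 1, so 236 such transcripts lay outside the list, with lower scores. The same ratios chose the members, and nothing is read from this difference. All 32 members of 1000 nt or more had 4 intervals above 1, as did 36 of the 52 members under 500 nt. Shares of the wider set by length are not given, so these counts describe the members only.

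**Figure D2:**
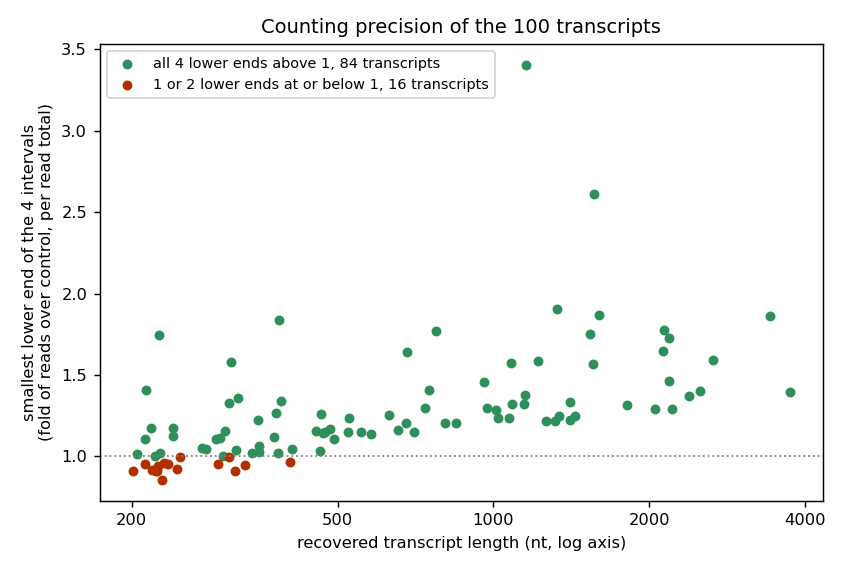
Recovered length (log axis, nt) of the 100 members against the smallest lower end of their 4 exact 95% intervals of the read ratio to control, with green points where all 4 lower ends exceed 1 (84 members) and red points where they do not (16 members). The red points are all shorter than 500 nt, and the lowest is at 0.855.

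The treatment with the highest ratio to control differed among the members. It was plain water in 33 members, salt water in 31, 700 mM NaCl in 26 and 450 mM NaCl in 10. Over the 31330 transcripts that met the minimum, the treatment libraries were highest of the 4 in 40.5%, 19.0%, 22.1% and 18.5% in the same order. Which treatment leads does not depend on the control level, since all 4 ratios share it, but a rule on the smallest ratio keeps out transcripts that are low in any 1 treatment. In 56 members the lead over the second treatment exceeded counting error: in 20 led by plain water, 16 by the combination, 17 by 700 mM NaCl and 3 by 450 mM NaCl. Such a lead was held by 53.8% of the 31330 transcripts, made up of 27.9%, 7.46%, 11.7% and 6.76% in the same order. In 21 members the lead was under 0.1 on the log2 scale, a count given without a share of the wider set.

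Plain water was followed by salt water in 25 of its 33 members. The matching share of the wider set is not given here, so nothing is read from this count. Both submerged libraries stood above both salt libraries in 44.6% of the transcripts that met the minimum. Pc_TC054190 (405 nt) had the largest lead of plain water, at 1.44 RPKM in the control, 2.19 in 450 mM NaCl, 2.66 in 700 mM NaCl, 7.63 under plain water and 4.02 under salt water. Its level under plain water was 1.90-fold above the next treatment (1.52 to 2.38), but its ratio in 450 mM NaCl had an interval of 0.967 to 2.42. Pc_TC143656 (240 nt) was next, at 0.956, 2.23, 2.21, 4.80 and 2.84 RPKM, from 13 reads in the control.

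The combined treatment had its largest leads in Pc_TC113045 and Pc_TC100403. Pc_TC113045 (455 nt) stood at 1.20 RPKM in the control, 2.54 in 450 mM NaCl, 2.18 in 700 mM NaCl, 2.75 under plain water and 7.84 under salt water. It was thus near one level in the 3 single treatments and 2.85-fold (2.25 to 3.62) above the highest of them in the combination. Pc_TC100403 (212 nt) stood at 2.83, 7.96, 6.22, 4.12 and 16.1 RPKM in the same order. Its ratio under plain water had an interval of 0.952 to 2.26, which includes 1.

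The single largest lead of the list, 3.12-fold over the next treatment (2.85 to 3.41), was that of 700 mM NaCl in 1 transcript. Pc_TC037465 (1539 nt) stood at 1.28 RPKM in the control, 7.20 in 450 mM NaCl, 22.4 in 700 mM NaCl, 3.08 under plain water and 2.79 under salt water, from 112, 663, 2018, 375 and 322 reads. It was graded with salt dose, 5.60-fold (4.58 to 6.91) and then 17.5-fold (14.4 to 21.3) above control, and 2.40-fold (1.94 to 2.99) and 2.17-fold (1.75 to 2.72) in the submerged libraries. Pc_TC125942 (212 nt) stood at 3.16, 7.41, 17.8, 5.19 and 6.43 RPKM, likewise with most in 700 mM NaCl.

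Few members were highest in 450 mM NaCl. Pc_TC012927 (3418 nt) stood at 2.22 RPKM in the control, 15.1 in 450 mM NaCl, 9.34 in 700 mM NaCl, 4.61 under plain water and 5.43 under salt water, and its 430 control reads give it narrow intervals. At 450 mM NaCl it was 6.81-fold above control (6.16 to 7.56) and 1.62-fold above 700 mM (1.53 to 1.72). Pc_TC040884, described above, was the other member with the largest lead at this dose.

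**Figure D3:**
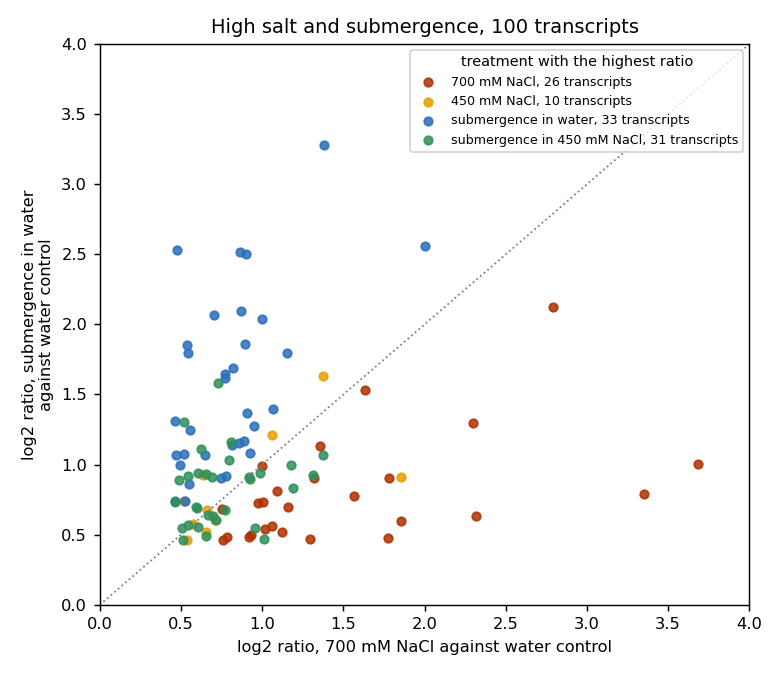
Log2 ratio to the water control (RPKM + 0.5) in 700 mM NaCl on the horizontal axis and under plain water on the vertical axis for the 100 members, coloured by the treatment with the highest ratio. Members led by 700 mM NaCl reach 3.68 along the horizontal axis and members led by plain water reach 3.28 along the vertical one, and Pc_TC085941, at 2.79 and 2.12, is high on both.

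By the order of the 4 ratios the members fell into 3 patterns. In 39 both submerged libraries were above both salt libraries that were not submerged, in 14 both salt libraries were above both submerged ones, and in 47 they were interleaved. Over the transcripts that met the minimum these shares were 44.6%, 27.7% and 27.7%. Median log2 ratios in the 39 were 0.66 in 450 mM NaCl, 0.69 in 700 mM NaCl, 1.25 under plain water and 1.19 under salt water. In the 14 they were 1.01, 1.47, 0.67 and 0.85 in the same order. The medians of the interleaved members lay closer together, at 0.82, 0.92, 0.74 and 0.83. The patterns were sorted on these same ratios, so nothing is read from such differences between medians. Single interleaved members could be uneven, as was Pc_TC100403 with a range of 1.85 between its lowest and highest log2 ratio.

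The range from the lowest to the highest of a member's 4 log2 ratios had a median of 0.64. It was under 0.5 in 32 members, at least 1 in 24 and at least 2 in 4. Shares of the wider set are not given for these counts, which describe the members only. The smallest range belonged to Pc_TC102803 (473 nt), which stood at 2.31 RPKM in the control and 4.06, 3.69, 3.69 and 3.73 in 450 mM NaCl, 700 mM NaCl, plain water and salt water. Pc_TC043181 (222 nt) stood at 3.02, 4.89, 4.63, 4.73 and 5.23 RPKM and Pc_TC145400 (554 nt) at 1.47, 2.44, 2.81, 2.65 and 2.53. In these 3 members the highest treatment did not exceed the second beyond counting error.

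The widest ranges were found in Pc_TC037465 (2.80), Pc_TC079114 (2.56) and Pc_TC036242 (2.33). Pc_TC079114 (380 nt) stood at 1.02 RPKM in the control, 13.5 in 450 mM NaCl, 15.0 in 700 mM NaCl, 2.13 under plain water and 8.26 under salt water. It was high wherever salt was present, and under plain water alone it was 2.09-fold above control (1.27 to 3.56) from 64 reads against 22. Pc_TC036242 showed the reverse order, with the submerged libraries above both salt libraries.

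**Figure D4:**
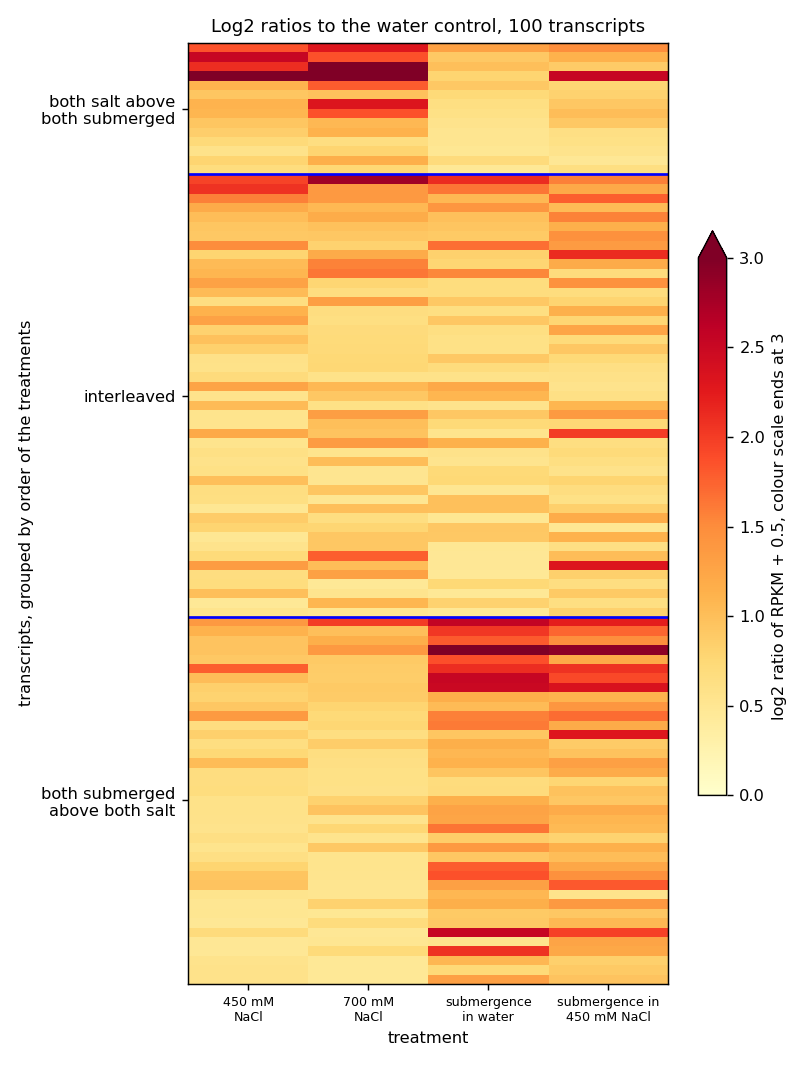
Log2 ratio to the water control (RPKM + 0.5, colour) of the 100 members (rows) in the 4 treatments (columns), in 3 blocks by the order of the treatments: 14 members with both salt libraries above both submerged ones, 47 interleaved and 39 with both submerged libraries above both salt ones. Rows run from the highest score down in each block, and the median ratio in 700 mM NaCl is 1.47 in the first block and 0.69 in the last.

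In each single comparison with the control, the members at least 2-fold higher on the scale of RPKM + 0.5 numbered 31 in 450 mM NaCl, 33 in 700 mM NaCl, 40 under plain water and 52 under salt water. Among all transcripts at RPKM of at least 1 in either library, the shares were 2.92%, 4.52%, 12.1% and 3.65%. At least 4-fold higher were 4, 6, 9 and 8 members, where 0.322%, 0.169%, 1.25% and 0.154% of those transcripts were. These comparisons chose the members, and nothing is read from the counts. Median log2 ratios of the members were 0.79, 0.82, 0.92 and 1.01, against −0.05, −0.13, 0.03 and 0.05 over the transcripts that met the minimum. The median in 700 mM NaCl thus lay 0.13 below 0 in that wider set. With median-of-ratios scaling the members' medians became 0.87, 0.94, 0.89 and 0.97, and all 100 members stayed above the control in each treatment. The choice of members fixed the latter. Scale factors of the treatments differed from the control's by up to 0.15 on the log2 scale, and the smallest score was 0.46.

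Comparisons between the treatment libraries leave out the control, but they use treatment values that also chose the members. In 700 mM against 450 mM NaCl, 3 members were at least 2-fold higher and 0 lower, where 4.0% and 3.67% of 70838 transcripts were. The 3 were Pc_TC037465, Pc_TC125942 and Pc_TC020380, the last of them named after its values were seen. Pc_TC020380 stood at 1.94 RPKM in the control, 3.47 in 450 mM NaCl, 7.84 in 700 mM NaCl, 2.88 under plain water and 4.41 under salt water. The members' median log2 ratio between the doses was −0.01, with 49 members higher in 700 mM NaCl and 51 in 450 mM NaCl. Over the transcripts that met the minimum the median was −0.07, and 39.1% were higher in 700 mM NaCl.

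Salt during submergence, that is salt water against plain water, had 5 members at least 2-fold higher and 0 lower, where 4.88% and 5.65% of 72628 transcripts were. They were Pc_TC100403, Pc_TC079114, Pc_TC034681, Pc_TC113045 and Pc_TC015719, of which Pc_TC034681 and Pc_TC015719 were named after their values were seen. Pc_TC034681 stood at 4.94 RPKM in the control, 12.1 in 450 mM NaCl, 10.04 in 700 mM NaCl, 7.43 under plain water and 21.2 under salt water. Pc_TC015719 stood at 1.61, 3.14, 4.30, 3.24 and 8.63 RPKM in the same order. The median over the members was 0.04.

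Against 450 mM NaCl, plain water had 8 members at least 2-fold higher and 3 lower, where 19.0% and 13.8% of 77060 transcripts were. Salt water had 5 higher and 2 lower, where 7.66% and 8.68% of 71650 were. In 7 of these 8 counts the members' share was below that of all transcripts, and in the other, salt water above plain water, it was near it. The wider sets include transcripts near 0 in 1 library, which the RPKM minimum of 2 keeps out of the members. Over the 31330 transcripts that met that minimum, the shares higher and lower were 0.517% and 0.504% for 700 against 450 mM NaCl, 3.85% and 1.23% for salt against plain water, 12.1% and 10.5% for plain water against 450 mM NaCl, and 4.68% and 3.44% for salt water against 450 mM NaCl. Set beside these, the 3 members higher in 700 mM NaCl are above the share of that set, and both counts for plain water against 450 mM NaCl are below it. The 5 members higher under salt than under plain water and the 5 higher under salt water than in 450 mM NaCl are above it by less than 2 members each. The counts of 0, 0 and 2 lower in the remaining comparisons are below it by less than 2 members each. Altogether 83 members were called in none of the 4 comparisons, 9 in 1, 7 in 2 and 1 in 3, which was Pc_TC037465. Over the 31330 transcripts these shares were 75.4%, 13.8%, 9.20% and 1.48%. The rule on the smallest ratio kept out transcripts low in any 1 treatment, which itself lowers such counts. Members were also shorter than that set, with a median of 478.5 against 904 nt. Their level in 450 mM NaCl was lower, with a median of 4.08 against 8.19 RPKM, so counting error weighs more in them. Nothing is therefore read from the differences between members and wider sets.

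The combined treatment can be set against its parts for each member. The ratio under salt water lay between those of 450 mM NaCl and of plain water in 48 members, above both in 38 and below both in 14, against 65.6%, 22.1% and 12.3% of the transcripts that met the minimum. The smallest of these same ratios chose the members, so nothing is read from these shares. The ratio under salt water was below the sum of the separate log2 ratios in 95 members, with a median departure of −0.77. In the wider set 38.5% were below and the median was 0.09. The departure contains the control level with a positive sign, so the choice of transcripts with a low control lowers it by construction. At 4-fold or more 4 members lay below the sum and 0 above, against 14 and 54 of the 31330 transcripts, and nothing is read from this difference.

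A single control library serves as the reference of all 4 ratios, and a control value that is low for any reason raises all 4 together. The same rule was therefore applied with each other library as the reference. At least 2-fold below all 4 others were 7 transcripts in the water control, 18 under salt water, 30 in 450 mM NaCl, 191 in 700 mM NaCl and 1617 under plain water. The score at rank 100 was 0.46, 0.60, 0.72, 1.20 and 2.35 in the same order. With median-of-ratios scaling, an alternative chosen after the data were seen, the numbers were 10, 20, 24, 152 and 1629 and the scores at rank 100 were 0.52, 0.63, 0.70, 1.13 and 2.34. Under both scalings the water control gave the fewest transcripts and the lowest score at that rank. With a treatment library as the reference, transcripts lowered in that treatment are counted too. These numbers therefore do not measure the control library's own part. Among the 31116 transcripts that reached RPKM 2 in all 5 libraries, the control was the lowest of the 5 in 5.36% and the highest in 11.6%, or 8.98% and 7.50% with median-of-ratios scaling. In this smaller set the control was lowest by 2-fold in 2 transcripts and 450 mM NaCl in 4 as deposited, but in 2 and 1 with the scaling, so there the control was not the scarcest. What part of the members' ratios comes from the control library itself cannot be told apart from an effect shared by the treatments.

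**Figure D5:**
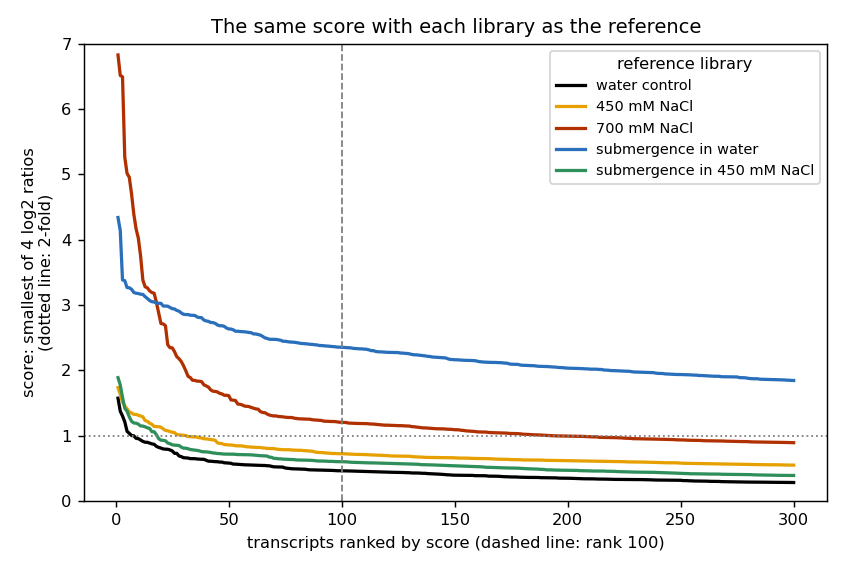
Score of the 300 highest-ranked transcripts when each of the 5 libraries in turn is the reference, that is the smallest of the 4 log2 ratios (RPKM + 0.5) of the other libraries to it. The line of the water control is the lowest, at 0.46 at rank 100 (dashed line), and that of plain water is at 2.35 there.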

How the data were processed

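The deposited values are RPKM per assembled transcript, which the authors calculated after filtering reads with NGS QC Toolkit and mapping them to *Porteresia* transcripts, per the series' design text. Neither the mapper, its version nor the handling of reads shared by near-identical copies is named in the sources used here, so single transcripts of such copies are uncertain. The assembly and the authors' own differential expression results were not used here.

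RPKM was used as deposited. Read totals, transcript lengths (at least 200 nt) and whole reads were solved from the RPKM steps for all 152263 transcripts above 0 in any library, with 99% of values within 7.01e-07 of a whole read. Where all reads of a transcript share a divisor, the smallest solution was taken. Recovered reads made up 99.05% to 99.14% of the totals. They served for the exact intervals (Clopper-Pearson for ratios, Poisson for levels; scipy 1.17.1). The scripts were tested on simulated data.

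Calls of higher or lower used a limit of 2-fold on RPKM + 0.5, among transcripts at RPKM of at least 1 in either library. Transcripts were named by rule: the 10 highest scores, the 2 largest leads of each treatment, the 5 highest control levels, the 3 narrowest and 3 widest ranges, 3 on each side of the limit, and the member called most often between treatments. Alternatives were other pseudocounts, minimum levels, scaling (median of ratios over transcripts at RPKM of at least 1 in all 5 libraries), scores and reference libraries. The members, rules and lists were chosen with earlier results of these data known. Gene lists were not applied, as the transcripts have no names.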

Additional observations from a re-analysis of the deposited data

Results flagged for a closer look

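In Pc_TC037465 submergence pointed in opposite directions without and with salt, which is why it is listed. Submergence in water stood above the water control by 1.01 on the log2 scale of RPKM + 0.5, and submergence in 450 mM NaCl stood at −1.23 against 450 mM NaCl. The effects differed by 2.23. With 1 library per treatment this difference was not tested. Opposite directions at 2-fold or more were found in 1 of the 100 members, and the first of these effects is part of the contrast that chose the member. The share over all transcripts that met the minimum is not given here, so nothing is read from this count.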

How the results depend on the processing

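No paired analysis was possible because each treatment has 1 library. The number of transcripts at least 2-fold above control in all 4 treatments, 7 as reported, was 17 with a pseudocount of 0.1, 3 with 1, 18 with a treatment minimum of RPKM 1, 2 with a minimum of 5 and 26 with none. It was 30, 191, 1617 and 18 with 450 mM NaCl, 700 mM NaCl, plain water and salt water as the reference, that is submergence without and with salt for the last 2. With median-of-ratios scaling, chosen after the data were seen, these were 24, 152, 1629 and 20. Of the 100 members, 39 stayed in the list with a minimum of RPKM 1, 30 with 5, 25 with none and 48 with the mean of the 4 ratios as score. A minimum of 5 leaves the scores unchanged, so those 30 are simply the members at RPKM 5 or more in all 4 treatments. Leaving 450 mM NaCl, 700 mM NaCl or plain water out of the score kept 42, 23 and 30. Between 81 and 100 stayed under the other pseudocounts, the scaling, either change of the control requirement and a score without the combination. Requiring a control of at least RPKM 1 could remove only the 4 members below that level. Leads beyond counting error numbered 3 for 450 mM NaCl, 17 for 700 mM, 20 for plain water and 16 for the combination. Beside this limit, the counts of leading treatments stayed within 1.5 times those reported. The list itself therefore depends on the minimum level and on the treatment libraries, least on the combination, without which 81 members stayed. The combination had the lowest ratio in 9 members, so leaving it out keeps most scores unchanged. The lowest ratio was that of 450 mM NaCl in 27 members, 700 mM NaCl in 33 and plain water in 31. The members called between treatment libraries stayed within 1.5 times those reported under the other pseudocounts and the scaling. Short members with few control reads are limited by depth.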
